A study of Mus musculus with 27 samples.

Results

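The tight junction genes described here are 10 genes of the colonic epithelium, namely Cldn2, Cldn3, Cldn4, Cldn7, Cldn8, Cldn15, Cldn23, Ocln, Tjp1 and F11r, chosen by name among the 46078 gene rows of each count table and matched by Ensembl ID. RNA from epithelial scrapings of the colon was sequenced in 27 C57BL/6 males, 3 to a group in 9 groups. Mice were gavaged from 28 days of age with sesame oil vehicle or with the dioxin TCDD (tetrachlorodibenzodioxin), a ligand of the aryl hydrocarbon receptor (AhR). There were 7 gavages at intervals of 4 days, and tissue was taken on day 28. The low doses of TCDD were 0.01, 0.03, 0.1 and 0.3 μg/kg, and the high doses were 1, 3, 10 and 30 μg/kg. The controls received the vehicle by the same schedule, and all groups shared strain, sex and diet. By the study's methods, all tissue was collected in the opening hours of the light phase. The tissue is a scraping and not a sorted cell preparation, so a difference may lie in the number of cells of a type or in the RNA per cell, and these cannot be told apart.

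Tight junctions seal the space between neighbouring epithelial cells just below the luminal surface and set which ions and solutes pass between them. Claudins are the membrane-spanning proteins that form the strands. Some, such as claudin-2 and claudin-15, form pores for small cations and water, while others, such as claudin-3, claudin-4 and claudin-8, tighten the barrier. Occludin (Ocln) lies in the same strands, the junctional adhesion molecule JAM-A (F11r) is an immunoglobulin-like adhesion protein of the junction, and ZO-1 (Tjp1) is the cytoplasmic scaffold that links the strands to actin.

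All 10 genes were well covered, with 142 reads as the lowest count of any of them in any mouse (Cldn8) and 9218 as the highest (Cldn7), and all 10 passed the filter on low counts that left 16496 genes for testing. The reads on genes totalled 9305441 to 14371035 per mouse. Mice of the same group always differed by more than sampling noise. Levels are given in CPM, the read count scaled to a TMM-normalised library. Libraries were indexed in a first set of 16 mice (those given vehicle or a low dose, and mouse 41 at 1 μg/kg) and a second set of 11 (mice 43 and 44 at 1 μg/kg and all mice at 3, 10 and 30 μg/kg), so the index set largely cannot be told apart from the dose. In mouse 14 at 0.01 μg/kg the clock genes stood apart from those of the other low-dose mice, as set out with Cldn8 below. The epithelial label was borne out by its markers, with Epcam between 914 and 945 CPM and Cdh1 between 1085 and 1353 CPM in vehicle-treated mice, and the AhR target Cyp1a1 had at most 1 read in a vehicle-treated mouse against 2066 to 2427 CPM at 30 μg/kg.

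The 10 genes lie on 8 chromosomes in the GRCm38 build (GENCODE M21). Cldn3, Cldn4 and Cldn15 are on chromosome 5, Cldn3 on the plus strand from 134986214 to 134987472, Cldn4 on the minus strand from 134945119 to 134946934, and Cldn15 on the plus strand from 136966616 to 136975858. Cldn7 is on chromosome 11 (plus strand, 69964779 to 69967885), Cldn8 on chromosome 16 (minus strand, 88560828 to 88563183), Cldn23 on chromosome 8 (minus strand, 35824712 to 35826559) and Cldn2 on chromosome X (plus strand, 139800828 to 139811386). Ocln is on chromosome 13 (minus strand, 100496507 to 100552718), Tjp1 on chromosome 7 (minus strand, 65296165 to 65527781) and F11r on chromosome 1 (plus strand, 171437535 to 171464603). Among these, Cldn3 shares 40 exonic bases with an antisense gene, Wbscr25, that had at most 13 reads in a mouse.

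The sequences shown are the promoter windows of Cldn3 and Cldn7, the most abundant members. Their levels also moved together from mouse to mouse, as did those of other pairs given below. They run from 250 bases before to 50 bases after an annotated start (RefSeq, GRCm38.p6), written 5′ to 3′ on the strand of the gene. Capitals mark the core of the AhR response element, GCGTG, or its reverse complement CACGC.
Cldn3, chr5:134985964-134986263: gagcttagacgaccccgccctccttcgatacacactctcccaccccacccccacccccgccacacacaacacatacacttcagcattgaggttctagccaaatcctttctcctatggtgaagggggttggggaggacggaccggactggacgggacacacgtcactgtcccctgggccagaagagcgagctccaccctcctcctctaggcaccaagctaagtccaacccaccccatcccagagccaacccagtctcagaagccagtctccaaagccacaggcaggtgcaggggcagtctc
Cldn7 window 1, chr11:69964529-69964828: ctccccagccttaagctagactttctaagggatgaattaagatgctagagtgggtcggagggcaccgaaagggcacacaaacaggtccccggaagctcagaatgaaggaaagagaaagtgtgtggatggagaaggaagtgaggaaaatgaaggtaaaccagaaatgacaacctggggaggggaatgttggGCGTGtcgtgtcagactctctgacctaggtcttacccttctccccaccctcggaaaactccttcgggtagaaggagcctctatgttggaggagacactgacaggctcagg
Cldn7 window 2, chr11:69965171-69965470: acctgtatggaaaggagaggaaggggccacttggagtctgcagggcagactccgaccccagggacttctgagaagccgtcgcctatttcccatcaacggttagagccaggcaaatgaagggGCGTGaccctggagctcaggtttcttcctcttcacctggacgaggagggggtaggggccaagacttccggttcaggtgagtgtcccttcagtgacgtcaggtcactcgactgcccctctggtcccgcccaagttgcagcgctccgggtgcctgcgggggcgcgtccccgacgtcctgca
The Cldn3 window held no match. Each Cldn7 window held 1, with its first base at position -60 in the first window and -129 in the second, counted back from the start. Windows were available for 8 of the 10 genes, Cldn8 and Cldn23 being the others. Over the 10 windows of these 8 genes, 7 held the AhR core, against 32.386% of all 32851 promoter windows in the table. The 7 windows belonged to Cldn4, Cldn7, Ocln, Tjp1 and F11r, and Ocln and Cldn7 entered this count with 2 windows each. The 2 Ocln windows overlap (100552449-100552748 and 100552669-100552968). The match at position -180 of the first is the same site as that at position 41 of the second. The E-box CACGTG, which binds the clock factors CLOCK and BMAL1, was in 0 of the 10 windows and in 7.15% of all. The GC box core GGGCGG was in windows of Cldn3, Cldn4, Cldn7, Cldn15, Ocln, Tjp1 and F11r and in 35.658% of all windows, and the TATA box TATAAA was in that of Cldn2 and in 13.616% of all. Each motif was searched on both strands and none contains another. A match of letters is not a binding site.

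Per kilobase of exon, Cldn3 and Cldn7 stood far above the other members in vehicle-treated mice. Cldn3 had 297 ± 12.4 CPM per kb and Cldn7 had 284 ± 6.35 CPM per kb (SD, n = 3 each), and the ranges of these 2 genes overlapped. F11r (80.0 ± 7.86 CPM per kb) and Cldn4 (72.6 ± 19.4 CPM per kb) followed, also overlapping each other and lying apart from Cldn7 above and Cldn15 below. The other 6 genes formed a run in which every neighbour overlapped the next, from Cldn15 (41.9 ± 6.25 CPM per kb) through Tjp1 (38.3 ± 3.89), Ocln (37.6 ± 2.38), Cldn8 (36.9 ± 8.71) and Cldn23 (34.8 ± 4.43) to Cldn2 (27.8 ± 3.55 CPM per kb). Over all 27 mice the 10 genes were among the more abundant transcripts, between the 76.1% of tested genes that lay below Cldn8 in CPM and the 99.2% below Cldn7.

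Tight junction genes differed in how constant they were among mice of the same group. Cldn3 had the smallest within-group SD of log2 CPM, 0.11, followed by F11r (0.11) and Cldn7 (0.12), and the median over all tested genes was 0.21. Cldn8 was the most variable (0.44), then Cldn4 (0.37) and Cldn2 (0.33). Between the lowest and the highest of the 27 mice, Cldn8 spanned 9.94-fold, Cldn4 2.89-fold and Cldn2 2.79-fold, whereas F11r spanned 1.32-fold and Ocln 1.44-fold.

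Cldn8, a sealing claudin of the distal colon and the distal nephron that limits the passage of sodium, fell with dose and was the member with the largest difference. In vehicle-treated mice it had 111, 75.5 and 74.8 CPM. The mice at 0.01 μg/kg had 69.6, 62.1 and 26.4 CPM, those at 0.03 μg/kg 121, 98.3 and 65.3 CPM, those at 0.1 μg/kg 54.1, 71.1 and 107 CPM and those at 0.3 μg/kg 58.9, 60.9 and 76.5 CPM. At these doses the mice overlapped those given vehicle, except at 0.01 μg/kg, where all 3 lay below. At 1 μg/kg the values were 31.5, 34.5 and 26.8 CPM, at 3 μg/kg 22.4, 27.4 and 18.8 CPM, at 10 μg/kg 26.3, 12.2 and 20.5 CPM, and at 30 μg/kg 13.4, 20.7 and 13.1 CPM. The 12 mice given 1 μg/kg or more (12.2 to 34.5 CPM) thus all lay below the 14 mice given vehicle or a low dose other than mouse 14 (54.1 to 121 CPM), and mouse 14, with 26.4 CPM at the lowest dose, lay among the high-dose mice. Mouse 41, the mouse at 1 μg/kg in the first index set, had 31.5 CPM, between the mice of the same dose in the second set.

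**Figure D1:**
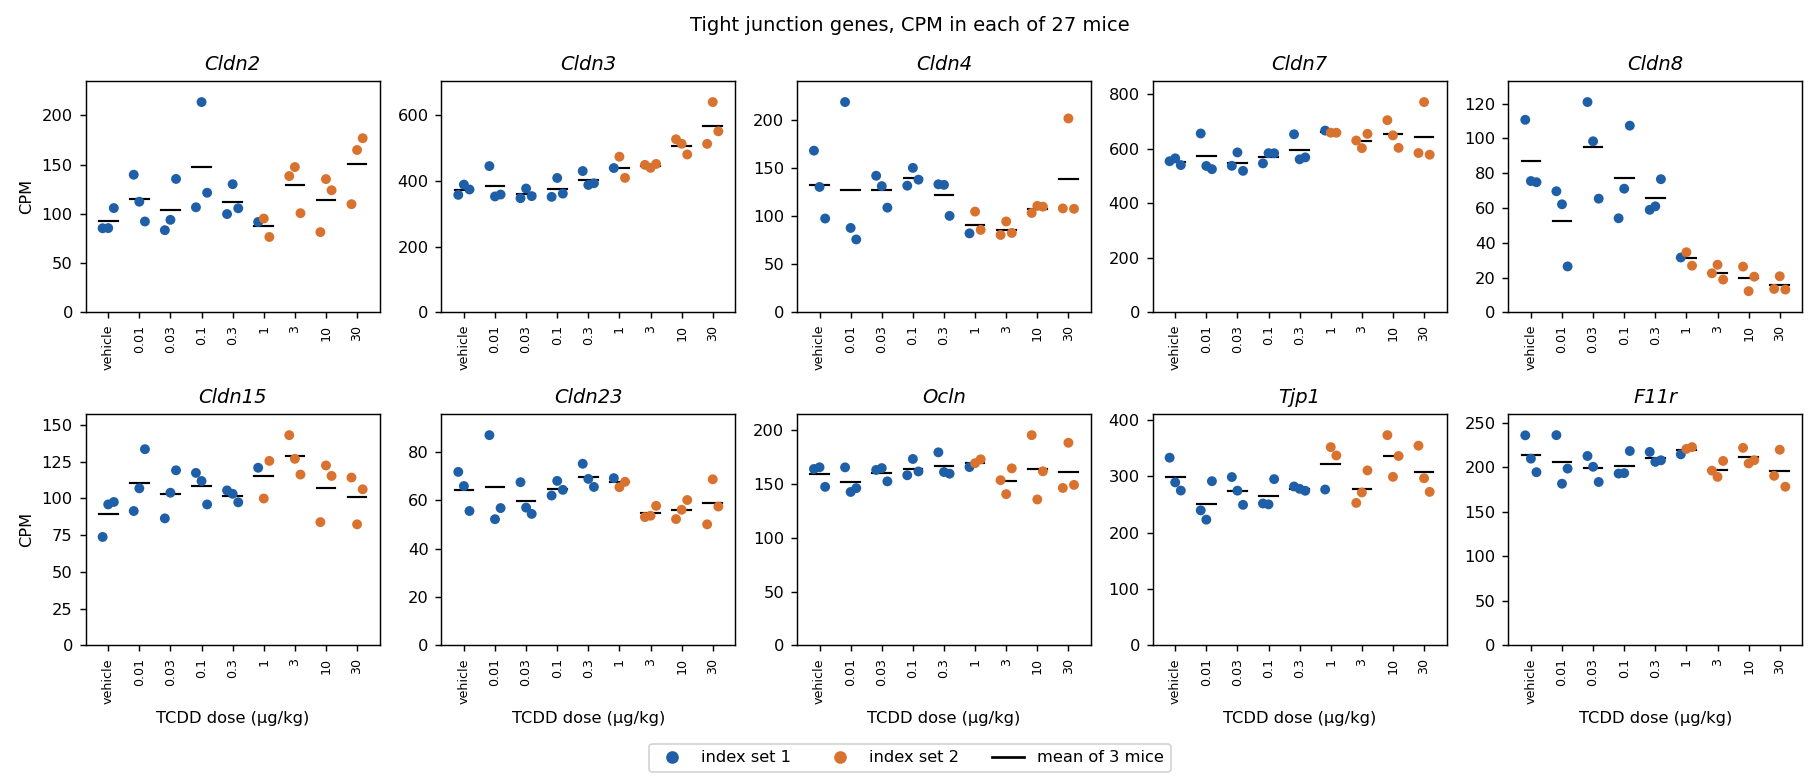
CPM (vertical axis, linear, from 0) of each tight junction gene in each mouse against the TCDD dose in μg/kg (horizontal axis, categories), with the index set in colour and the mean of 3 mice as a bar. Cldn8 lies lower in the 12 mice at 1 μg/kg or more than at 0.3 μg/kg, though the step from 0.3 to 1 μg/kg was not called. Mouse 14 at 0.01 μg/kg (26.4 CPM) is low as well, and Cldn3 climbs from a mean of 373 CPM in vehicle-treated mice to 568 CPM at 30 μg/kg.

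Relative to vehicle, Cldn8 was 2.81-fold lower at 1 μg/kg (log2 fold change -1.49 with a standard error, SE, of 0.32, adjusted p = 0.0412), 3.81-fold lower at 3 μg/kg (-1.93, SE 0.32, adjusted p = 0.00268), 4.42-fold lower at 10 μg/kg (-2.15, SE 0.32, adjusted p = 0.000872) and 5.52-fold lower at 30 μg/kg (-2.47, SE 0.33, adjusted p = 6.05e-05), by the quasi-likelihood test of edgeR, adjusted by Benjamini-Hochberg over all genes. The call required at least a 1.5-fold difference and an adjusted p under 0.05. At these 4 doses, in the same order, 0.2%, 0.697%, 1.78% and 6.16% of all tested genes were called. At the 4 low doses 0% of all genes and 0 of the 10 tight junction genes were called, 2, 0, 1 and 0 members had an unadjusted p under 0.05 (as did 6.35%, 4.64%, 6.37% and 5.19% of all genes), and DESeq2 also called 0 members. The step from 0.3 to 1 μg/kg itself was -1.08 on the log2 scale for Cldn8 (SE 0.31, adjusted p = 0.511, 0.00606% of all genes called). The call at 1 μg/kg was lost in each of the 6 fits that left out 1 mouse, namely vehicle replicates 2, 3 and 4 and mice 41, 43 and 44 (log2 fold change -1.59 to -1.27, adjusted p = 0.0738 to 0.254). When the index set was added as a term, Cldn8 remained called at 30 μg/kg (-2.42, SE 0.61, adjusted p = 0.0281). It was not called at 1, 3 and 10 μg/kg (-1.46, -1.89 and -2.10, SE 0.49, 0.60 and 0.61, adjusted p = 0.302, 0.153 and 0.094). Only the group at 1 μg/kg spans both index sets, so the term was estimated from mouse 41 against mice 43 and 44 alone. The estimates stayed close to those without the term, and the SEs grew.

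Cldn8 was accompanied by genes of the circadian clock. By Pearson's r of log2 CPM over the 27 mice, the genes most like Cldn8 were Arntl (r = 0.96), which encodes BMAL1, the core activator of the clock, then Npas2 (r = 0.95), a partner of BMAL1, and St5 (r = 0.94). Arntl had 54.7 to 79.1 CPM in vehicle-treated mice and 37.0 to 42.7 CPM at 0.3 μg/kg, against 10.1 to 23.8 CPM at 1 μg/kg and 6.47 to 11.4 CPM at 30 μg/kg. In mouse 14 it had 11.8 CPM, so that this mouse stood with the high-dose mice for Arntl as it did for Cldn8. These correlations run across groups that differ in dose and index set. Within the 14 mice given vehicle or a low dose, mouse 14 left out, Pearson's r of Cldn8 with Arntl was 0.58 (Spearman's rho 0.58), and within the 12 mice at 1 to 30 μg/kg it was 0.84 (rho 0.82). For Npas2 these values were 0.36 (rho 0.41) and 0.82 (rho 0.80). Both subsets still span several doses, and the 12 mice span both index sets. Arntl and Npas2 were picked as the closest genes in these same mice, and their r with group means taken off was not computed.

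**Figure D2:**
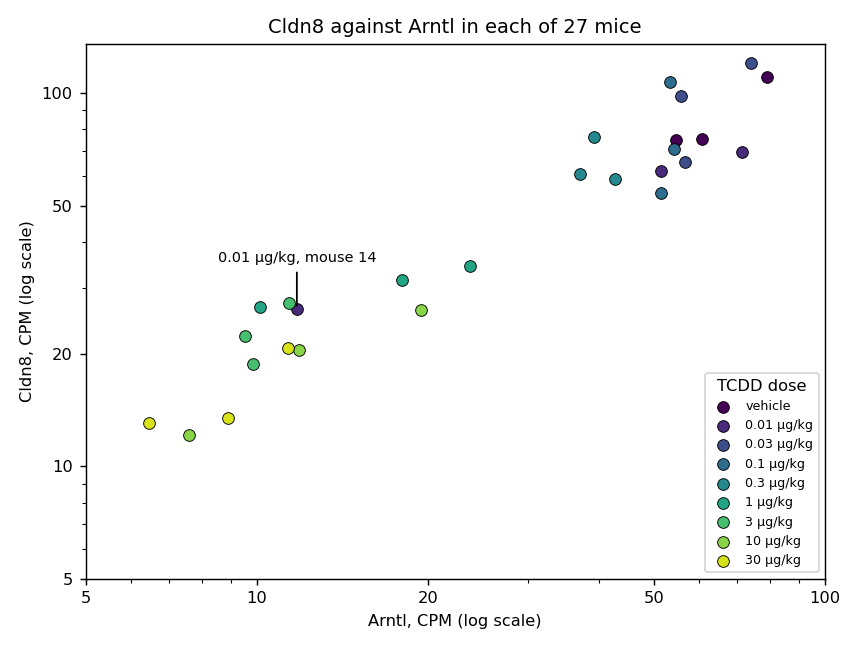
Cldn8 against Arntl, both in CPM on log axes, with 1 point per mouse coloured by TCDD dose. The 14 mice given vehicle or a low dose, without mouse 14, sit between 54.1 and 121 CPM of Cldn8, and mouse 14 (26.4 CPM of Cldn8, 11.8 CPM of Arntl) sits among the 12 mice given 1 μg/kg or more.

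Of 9 clock genes on the side of Dbp (Dbp, Per1, Per2, Per3, Nr1d1, Nr1d2, Ciart, Tef and Hlf), 9 were higher than in vehicle at 3, 10 and 30 μg/kg by the same test and 6 at 1 μg/kg. Of 5 on the side of Arntl (Arntl, Npas2, Clock, Cry1 and Nfil3), 4 were lower at each of these 4 doses. A clock score, the mean log2 CPM of the first list minus that of the second, was -2.61 ± 0.13 (SD, n = 3 here and for the doses that follow) in vehicle-treated mice. It was -0.80 ± 0.40 at 0.3 μg/kg, but 1.54 ± 0.57 at 1 μg/kg, 1.97 ± 0.37 in the mice given 30 μg/kg, and 1.45 in mouse 14. Both lists rest on these same mice, and the score holds Arntl and Npas2, the genes most like Cldn8, so that a smaller difference with the score as a covariate is in part built in. With it, Cldn8 was no longer called at any dose, and its log2 fold change was -0.094, -0.42, -0.63 and -0.94 at the 4 high doses in ascending order (SE 0.45 to 0.48, adjusted p = 0.967, 0.747, 0.581 and 0.292, edgeR). Within groups the score varied most at 0.01 μg/kg, the group of mouse 14 (SD 2.29, against 0.022 to 0.57 in the other groups), so that the precision of this fit rests largely on mouse 14. Without it the same fit gave -0.11, -0.45, -0.65 and -0.96, with SEs of 0.97 to 1.05 (adjusted p = 0.807 to 0.985), and 4 of all genes tested were called at 30 μg/kg in place of 423. The score follows the dose in all groups but that of mouse 14, and the part of the clock genes in the result for Cldn8 was not otherwise tested. Without mouse 14 and without the score, Cldn8 was called at 1, 3, 10 and 30 μg/kg as before, with log2 fold changes of -1.49, -1.93, -2.15 and -2.46.

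Cldn3, which encodes a sealing claudin found along the whole gut, rose in small steps with dose. In vehicle-treated mice it had 358, 389 and 374 CPM. Up to 0.3 μg/kg the mice overlapped these values, from 347 CPM at 0.03 μg/kg to 445 CPM at 0.01 μg/kg. At 1 μg/kg the mice had 439, 474 and 409 CPM, at 3 μg/kg 449, 439.8 and 452 CPM, at 10 μg/kg 527, 513 and 480.5 CPM, and at 30 μg/kg 513, 640.1 and 551 CPM. All 12 mice at these doses lay above all vehicle-treated mice. At 30 μg/kg Cldn3 was 1.52-fold higher than in vehicle (log2 fold change 0.60, SE 0.091, adjusted p = 0.000189, edgeR), just past the required 1.5-fold. At 10 μg/kg it was 1.36-fold higher (0.44, SE 0.091, adjusted p = 0.00875), which passed the adjusted p alone. At 3 and 1 μg/kg the log2 fold changes were 0.26 and 0.24 (adjusted p = 0.158 and 0.348). The call at 30 μg/kg was lost on the fold limit without vehicle replicate 2 (0.58, adjusted p = 0.00235) and without mouse 66 (0.51, adjusted p = 0.00223). The call held when the index set was added as a term (0.60, SE 0.17, adjusted p = 0.0412), which was estimated from the mice at 1 μg/kg alone. With the clock score as a covariate the value was 0.87 (SE 0.16, adjusted p = 0.00809), and when mouse 14 was also left out it was 1.295 (SE 0.33, adjusted p = 0.214) and not called.

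**Figure D3:**
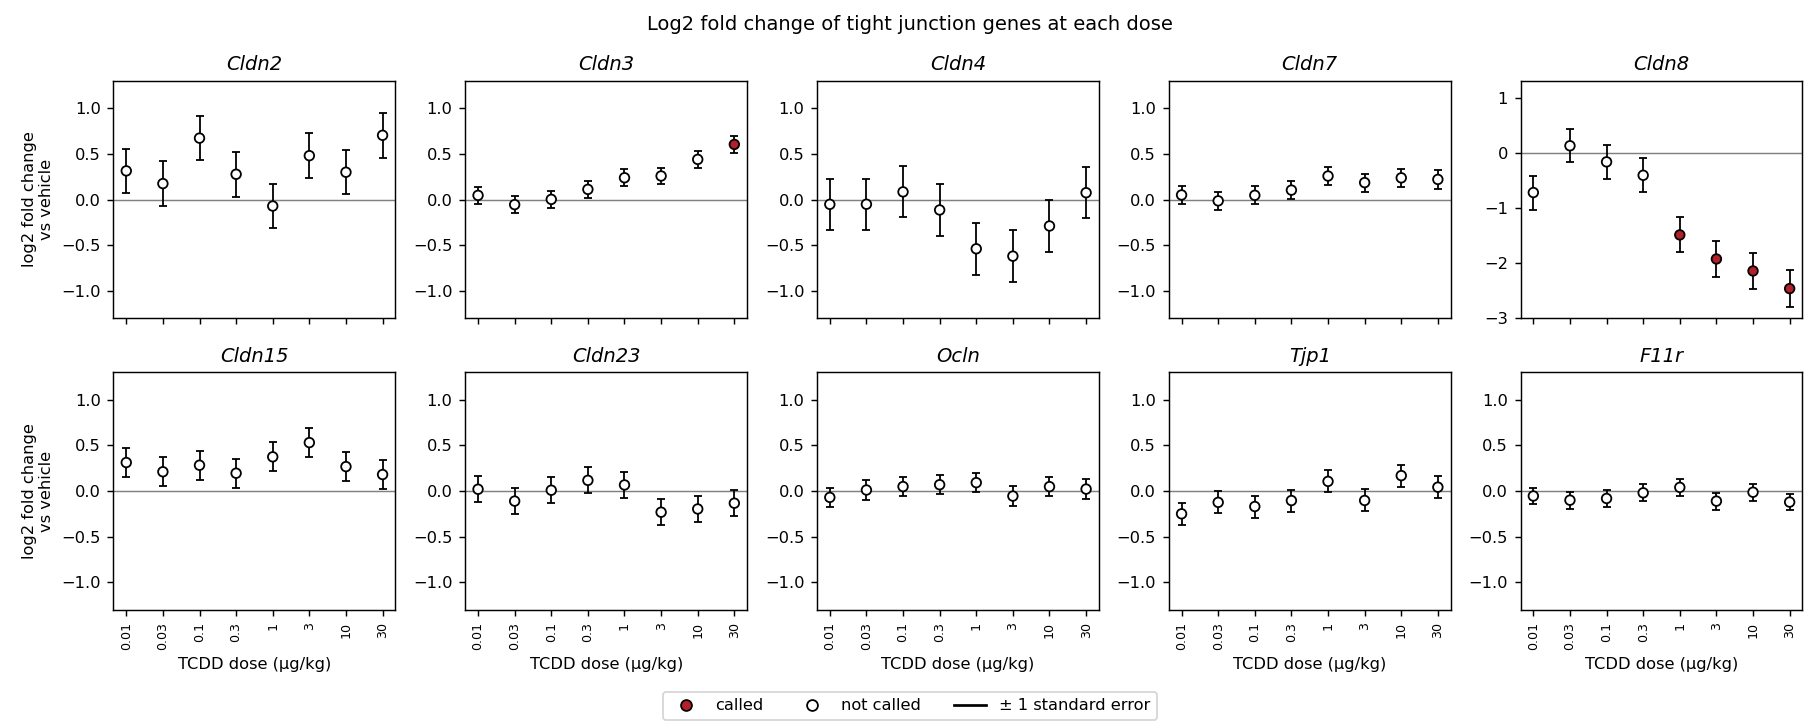
Log2 fold change against vehicle (vertical axis, with a longer scale for Cldn8) of each tight junction gene at each TCDD dose in μg/kg, with 1 SE on either side and filled points for called comparisons. The filled points are Cldn8 at 1, 3, 10 and 30 μg/kg (-1.49 to -2.47) and Cldn3 at 30 μg/kg (0.60).

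Over the rank of the dose, from vehicle as the lowest to 30 μg/kg as the highest, 3 of the 10 genes had a slope with an adjusted p under 0.05 over the 27 mice, where 23.4% of all tested genes did. Per dose step the log2 level of Cldn8 changed by -0.335 (SE 0.043, adjusted p = 3.46e-06), that of Cldn3 by 0.074 (SE 0.0093, adjusted p = 2.49e-06) and that of Cldn7 by 0.034 (SE 0.0087, adjusted p = 0.00476; by the edgeR test). When the index set was added as a term, the slopes were -0.15, 0.055 and 0.025 (adjusted p = 0.258, 0.128 and 0.483), and 0 of the 10 and 11 of all 16496 genes were called. The clock score as a covariate also left 0 of the 10 called, and 39 of all genes. The slope of Cldn7 was not called by limma voom either.

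Cldn7, the claudin of the basolateral membrane that binds EpCAM, had 554, 565 and 539.9 CPM in vehicle-treated mice. At 30 μg/kg it had 584, 771 and 578 CPM, and all 12 mice at 1 μg/kg or more (578 to 771 CPM) lay above the vehicle-treated mice. They overlapped the low-dose mice, however. The 14 mice given vehicle or a low dose, mouse 14 left out, had 519 to 656 CPM. The differences were small, with log2 fold changes of 0.26, 0.19, 0.24 and 0.22 at 1, 3, 10 and 30 μg/kg (SE 0.10 each, adjusted p = 0.154 to 0.371), and were not called. Without mouse 66, the mouse with 771 CPM, the value at 30 μg/kg was 0.072 (adjusted p = 0.701). The gene most like Cldn7 over the 27 mice was Epcam (r = 0.92), followed by the junction protein gene Jup (r = 0.92). Those most like Cldn3 were Fam234a (r = 0.95), Hsd17b11 (r = 0.95) and Perp (r = 0.94), a desmosomal membrane protein gene, with log2 fold changes of 0.61, 0.57 and 0.53 at 30 μg/kg.

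The cation pore claudins did not pass the criterion at any dose. Cldn2 had 85.4, 85.6 and 106 CPM in vehicle-treated mice and 109.9, 165 and 177 CPM at 30 μg/kg. All 3 mice at that dose lay above the vehicle-treated mice, with a log2 fold change of 0.70 (SE 0.24, adjusted p = 0.0638, edgeR). The widest values were at 0.1 μg/kg, where the mice had 107, 214 and 121 CPM. They also all lay above vehicle, with a similar log2 fold change of 0.67 (SE 0.24, adjusted p = 0.73, edgeR). Under 4 settings Cldn2 was called at 30 μg/kg, namely with DESeq2 (adjusted p = 0.0323), without the filter on low counts (0.0214), with the Hox score as a covariate (0.0335) and in a fit of the 2 groups alone (0.0487). It was also called without mouse 65 (log2 fold change 0.89, adjusted p = 0.0286). Cldn15 had 73.8, 95.9 and 97.6 CPM in vehicle-treated mice and its highest mean at 3 μg/kg, with 143, 127 and 116 CPM (log2 fold change 0.53, SE 0.16, adjusted p = 0.0956), all above the vehicle-treated mice. Its values at 30 μg/kg were 114, 82.4 and 106 CPM, within reach of vehicle (0.18, SE 0.16, adjusted p = 0.5).

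Cldn4, a sealing claudin that is induced in stressed epithelium, had 168, 130.2 and 97.4 CPM in vehicle-treated mice and 80.3, 94.3 and 82.4 CPM at 3 μg/kg, where all 3 mice lay below vehicle (log2 fold change -0.62, SE 0.28, adjusted p = 0.278). The mice at 30 μg/kg had 108, 201 and 108 CPM, with mouse 66 the high one, and the log2 fold change was 0.075 with that mouse and -0.29 without it (SE 0.28 and 0.29). With the clock score as a covariate Cldn4 was called higher at 30 μg/kg (1.48, SE 0.40, adjusted p = 0.047), a call that rests on mouse 14 and was lost without it (3.00, SE 0.80, adjusted p = 0.214). Cldn23, a less studied claudin of differentiated colonocytes, had 55.6 to 71.7 CPM in vehicle-treated mice and 50.1 to 68.7 CPM at 30 μg/kg, with log2 fold changes from -0.23 to 0.12 over the 8 doses.

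The non-claudin members Ocln, F11r and Tjp1 were not called against vehicle at any dose. Ocln had 147 to 165 CPM in vehicle-treated mice and 146 to 188 CPM at 30 μg/kg, and its log2 fold changes ran from -0.070 to 0.091 over the 8 doses, with a SE of 0.11. F11r had 194 to 236 CPM in vehicle-treated mice and 178 to 219 CPM at 30 μg/kg (log2 fold change -0.12, SE 0.092, adjusted p = 0.425). Tjp1 had 275 to 333 CPM in vehicle-treated mice and 272 to 354 CPM at 30 μg/kg (0.042, SE 0.12, adjusted p = 0.865), with its lowest mean at 0.01 μg/kg (251 ± 35.6 CPM) and its highest at 10 μg/kg (336 ± 37.0 CPM, SD, n = 3 each).

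As a share of the claudin signal, the sum of CPM per kb over the 10 claudin genes that were tested, Cldn3 and Cldn7 together made up 71.8 ± 2.33% in vehicle-treated mice and 77.7 ± 0.48% at 30 μg/kg (SD, n = 3 each). Cldn3 alone went from 36.7 ± 1.88% to 44.9 ± 1.27%, and the mice did not overlap (34.5 to 38.0% against 43.6 to 46.1%). Cldn8 went from 4.56 ± 1.01% to 0.657 ± 0.0872%, also without overlap. The share of Cldn7 at 30 μg/kg was below that in vehicle-treated mice (31.2 to 33.9% against 34.6 to 35.5%), and so was that of Cldn23 (3.00 to 3.27% against 3.85 to 4.72%), both without overlap. At 1 and 3 μg/kg the share of Cldn7 lay above all vehicle-treated mice (means 38.4 and 36.8%), and its own CPM at 30 μg/kg was higher than in vehicle-treated mice, as given with that gene. The CPM of Cldn23 at 30 μg/kg overlapped that in vehicle-treated mice (log2 fold change -0.13, SE 0.14, adjusted p = 0.587, edgeR). A share also depends on the other claudins in the sum. Cldn2 and Cldn15, the pore claudins, held 3.44 ± 0.55% and 5.20 ± 0.86% in vehicle-treated mice and 4.50 ± 1.00% and 4.84 ± 1.36% at 30 μg/kg, with overlap in both. The summed claudin signal was 809 ± 24.4 CPM per kb in vehicle-treated mice and 1007 ± 141 CPM per kb at 30 μg/kg.

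**Figure D4:**
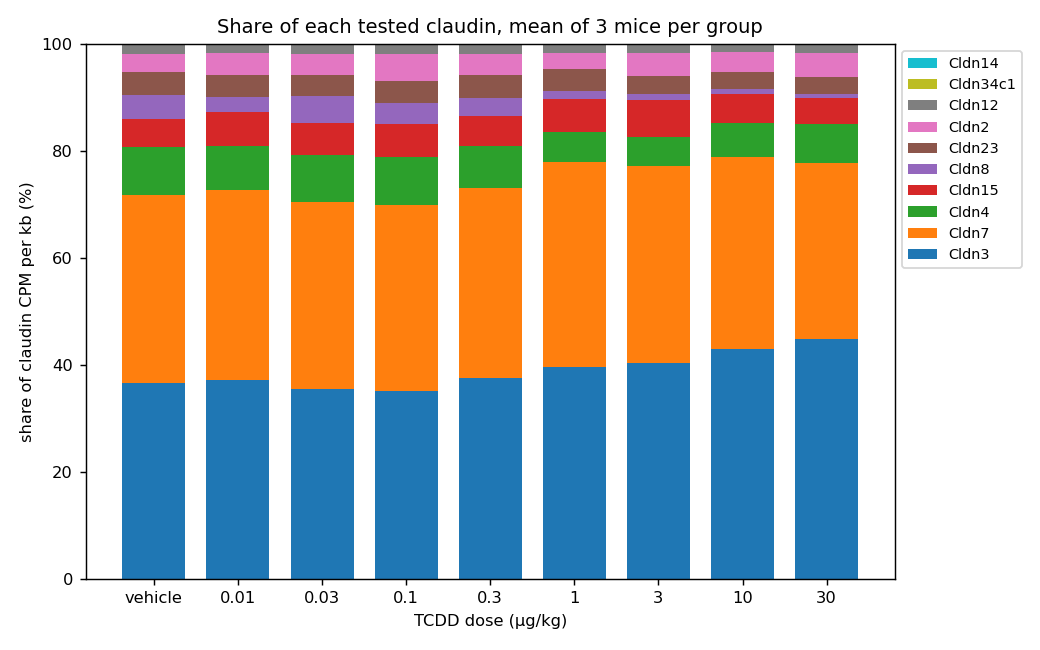
Share of each of the 10 tested claudin genes in the summed claudin CPM per kb (vertical axis, percent, mean of 3 mice) for each TCDD dose in μg/kg (horizontal axis). Cldn3 widens from 36.7% in vehicle-treated mice to 44.9% at 30 μg/kg, and Cldn8 narrows from 4.56% to 0.657%.

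Doses were also compared within the second index set. Between 30 and 3 μg/kg, 0 of the 10 tight junction genes and 0.461% of all genes were called, and between 10 and 3 μg/kg 0 of the 10 and 0.0485% of all. From 3 to 30 μg/kg, 3 members and 11% of all genes had an unadjusted p under 0.05, the members being Cldn3 (log2 fold change 0.35, SE 0.091, adjusted p = 0.0869), Cldn4 (0.70, SE 0.28, adjusted p = 0.337, and 0.33 without mouse 66) and Cldn15 (-0.35, SE 0.16, adjusted p = 0.411), and DESeq2 also called 0. Cldn8 was lower at 30 than at 3 μg/kg by -0.54 (SE 0.33, adjusted p = 0.589). Between the 6 mice at 10 and 30 μg/kg and the 5 mice at 1 and 3 μg/kg of that set, 0 of 10 members and 0.345% of all genes were called (3 members and 12.9% of all genes with an unadjusted p under 0.05, 0 members called by DESeq2). The values there were 0.28 for Cldn3 (SE 0.071, adjusted p = 0.123) and -0.55 for Cldn8 (SE 0.20, adjusted p = 0.273, edgeR).

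The members also varied together within groups. After the mean of each group was taken off, the log2 levels of Cldn4 and Cldn23 had a Pearson's r of 0.88 over the 27 mice, those of Cldn3 and Cldn7 0.83, and those of Cldn8 and Cldn15 -0.83. Each of these pairs comes from the same libraries, and they are the 3 largest by size among the 45 pairs of members. Over the 27 mice, the gene with the highest Pearson's r was Tram1 for Cldn2 (0.88), Tmcc3 for Cldn4 (0.87), Dpysl2 for Cldn15 (0.86), Sqstm1 for Cldn23 (0.80), Btg1 for Ocln (0.81), Naip6 for Tjp1 (0.86) and Ccng2 for F11r (0.87). A Hox score was taken as the first principal component of 25 tested Hox genes (69.464% of their variance). It was signed to rise with Hoxd11 and Hoxd13 (r = 0.34 and 0.94 over the 27 mice) and falls with Hoxd3, Hoxd4, Hoxd8 and Hoxd9 (-0.83 to -0.47). Of the 4 genes listed as proximal markers, Hoxa5 and Hoxa7 rise with it (0.67 and 0.69) while Hoxb6 and Hoxb8 fall (-0.91 and -0.89). Its reading as position along the colon was not tested. In the 15 mice of the vehicle and low-dose groups, with a term for the group, 0 of 10 members and 7.37% of all genes had a slope on this score with an adjusted p under 0.05. Cldn8 had the largest positive slope, 0.28 per SD of the score (SE 0.088, adjusted p = 0.0699), Cldn15 had -0.12 (SE 0.042, adjusted p = 0.121), and 4 members and 18.9% of all genes had an unadjusted p under 0.05, while DESeq2 called 0 members. Cldn8 and Cldn15 were both called without mouse 14, and also with all 15 mice when low counts were not filtered out. The score at 30 μg/kg was 0.32 ± 0.69 against 0.23 ± 0.91 in vehicle-treated mice (SD, n = 3 each), and with it as a covariate Cldn8 (-2.46, adjusted p = 2.07e-06) and Cldn3 (0.61, adjusted p = 9.47e-05) were called as before.

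Markers of the cell types in a scraping gave the setting for these values. The summed level of 10 general epithelial genes was 8758 to 9775 CPM in vehicle-treated mice and 9105 to 11763 CPM at 30 μg/kg, with 0 of 10 called, and that of 9 surface colonocyte genes was 7605 to 8175 CPM and 7339 to 8528 CPM, also with 0 of 9 called. At 1, 3 and 10 μg/kg the epithelial sum lay above all vehicle-treated mice (10099 to 11100, 10216 to 10628 and 10473 to 11216 CPM), with 0 of 10 called. So did the surface colonocyte sum at 3 and 10 μg/kg (8544 to 10625 and 8599.5 to 10758 CPM). Over the rank of the dose, 5 of 10 epithelial and 1 of 9 surface colonocyte genes had an upward slope (adjusted p under 0.05, edgeR). None had a downward one, and 11.8% of all genes had an upward slope. Crypt base and cycling genes were lower at 30 μg/kg in 3 of 10 cases (summed 525 to 575 CPM in vehicle-treated mice and 344 to 360 CPM at 30 μg/kg), and tuft cell genes in 6 of 6 (85.2 to 100.1 CPM against 25.8 to 38.1 CPM). Smooth muscle and stromal genes ran from 145 to 182 CPM in vehicle-treated mice and from 155 to 791 CPM at 30 μg/kg (1 of 11 called higher), endothelial genes from 24.9 to 33.2 CPM and from 30.3 to 63.4 CPM (3 of 6 higher), and adipose genes from 6.89 to 27.3 CPM and from 25.1 to 202 CPM (3 of 6 higher). Goblet cell genes were called in 1 of 8 cases (higher), and enteroendocrine and leukocyte genes in 0 of 6 and 0 of 8. No gene of these lists was at 0 in all mice. Their part in the values of the tight junction genes was not tested.

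Of the 82 other junction genes reported here 62 were tested, and at 30 μg/kg 4 of them were called higher and 1 lower than vehicle, where 2.95% of all genes tested were called higher and 3.21% lower, with a median log2 fold change of 0.079 against -0.0022 over all genes tested. Higher were Cldnd1, which encodes a claudin-domain protein (log2 fold change 0.71, SE 0.12, adjusted p = 0.000878), Cldn14 (1.84, SE 0.47, adjusted p = 0.0141, with a mean of 1.22 CPM), Jam3 (2.52, SE 0.74, adjusted p = 0.0305, mean 0.734 CPM), and the connexin gene Gja1 (1.01, SE 0.31, adjusted p = 0.0396). Lower was Lsr, which encodes the angulin that recruits tricellulin to corners where cells meet (-0.66, SE 0.15, adjusted p = 0.00894). Jam3 and Gja1 are also expressed by endothelium and smooth muscle, whose summed markers at 30 μg/kg are given above. None of the 27 other plaque protein genes and none of the 12 adherens junction genes was called at 30 μg/kg.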

How the data were processed

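RNA-seq of colonic epithelium scrapings from 27 mice was analysed. The authors deposited raw counts, 1 table per mouse of whole reads assigned to each gene, not normalized. Per the labels and the submitters' processing notes, FastQC 0.11.3, Trimmomatic 0.33, TopHat2 2.1.0, SAMtools 1.2.0, HTSeq 0.6.1, DESeq and the GRCm38 build were used, and neither the gene annotation nor whether strand was used is given in the sources used here. Reads with more than 1 alignment made up 30.7 to 37.1% of each table and reads on no feature 29.1 to 33.3%, and both stayed out of library sizes. Genes with near-identical copies or overlaps may therefore be undercounted.

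From these counts, 16496 genes passed filterByExpr with a minimum count of 10 (edgeR 4.0.16, R 4.3.3). Libraries were scaled by TMM, all 9 groups entered 1 glmQLFit, and glmQLFTest gave each comparison, with Benjamini-Hochberg adjustment over all genes tested. Standard errors were the log2 fold change divided by the square root of F. Calls required at least a 1.5-fold difference with an adjusted p under 0.05, and slopes the latter alone. Log2 CPM used a prior count of 2. The steps were tested on simulated data. Groups follow the labels. Nothing but the mouse numbers, and at 1 μg/kg also the index set, tells the samples of a group apart. The p-values therefore measure the spread between these mice.

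The 10 genes and the lists were chosen with earlier results of these data known, and the clock lists rest on these samples. A gene of the junction lists is not reported here, and their counts leave it out, for a reason unrelated to its values. Named genes were the 10 members, other junction genes called at 10 or 30 μg/kg (up to 20), and the 3 genes with the highest Pearson's r to each member over the 27 mice, of which the first is given for each. The genes named for their slopes in the closing section fall outside this rule. Members that passed the filter were all 10. Alternatives were RLE factors, DESeq2 (1.42.0), limma voom (3.58.1, with a posterior probability of 0.8 or more), all genes with a read, the adjusted p alone, an index set term, the Hox score as a covariate, a fit of the 2 groups alone, log10 dose for the slope and each mouse left out. The clock score, fits without mouse 14 and both together were added after the data were seen.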

Additional observations from a re-analysis of the deposited data

How the results depend on the processing

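No paired analysis was possible because every mouse has a number of its own that recurs in no other group. For each change given here the cause was not tested. Of 731 recomputed values of single tight junction genes, 657 kept their direction and their side of the threshold, 31 were no longer called, 8 became called and 35 changed sign while called in neither fit. The call of Cldn8 at 30 μg/kg was lost with the clock score, with or without mouse 14, and in no other alternative run.

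Members called at 1 μg/kg numbered 0 with limma voom, the index set term, the clock score (with or without mouse 14) and in each of the 6 fits without 1 mouse of the vehicle or 1 μg/kg group, against 1, and 1 without mouse 14 (0 to 1). At 3 and 10 μg/kg 0 were called with the index set term and with the clock score, and at 10 μg/kg 2 with the adjusted p alone. At 30 μg/kg the fits without 1 mouse called 1 to 3, and 0 were called with the clock score once mouse 14 was left out. For the slope, 0 members were called with the index set term and with the clock score. With the Hox score, 2 were called without the filter, 2 without mouse 14 and 1 over all 27 mice, against 0.

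All genes called at 3 μg/kg (115) numbered 231 with the adjusted p alone, 197 with DESeq2, 53 with limma voom, 180 without the filter, 2 with the index set term, 7 with the clock score (2 if mouse 14 was also left out), 230 in the fit of the 2 groups and 48 to 135 without 1 mouse (mouse 14 included). At 10 μg/kg (294) they numbered 532 with the adjusted p alone, 95 with limma voom, 58 with the index set term, 23 with the clock score (3 without mouse 14) and 163 to 310 without 1 mouse (mouse 14 included). At 30 μg/kg (1016) they numbered 1818 with the adjusted p alone, 218 with limma voom, 423 with the clock score (4 without mouse 14), 662 in the fit of the 2 groups and 590 to 1084 without 1 mouse. From 3 to 30 μg/kg (76) they numbered 151 with DESeq2, 42 with limma voom, 148 without the filter, 154 with the Hox score, 32 in the fit of the 2 groups and 33 to 142 without 1 mouse. For the slope (3865) they numbered 867 with limma voom, 11 with the index set term and 39 with the clock score (6 without mouse 14). The slope of Cldn7 was no longer called with limma voom.

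Uncalled log2 fold changes at 30 μg/kg changed sign with the index set term for Cldn4 (-0.14), Ocln (-0.026) and Tjp1 (-0.27), with the clock score for Cldn15 (-0.46), Cldn23 (0.35), Tjp1 (-0.19) and F11r (0.080), and without 1 mouse for Cldn4 (-0.29 to 0.29), Ocln (-0.10 to 0.087) and Tjp1 (-0.071 to 0.13). From 3 to 30 μg/kg they did so without 1 mouse for Cldn7 (-0.11 to 0.11), Cldn23 (-0.029 to 0.20), Ocln (-0.050 to 0.14) and F11r (-0.10 to 0.052). With the clock score and without mouse 14 they did so for Cldn15 (-1.13), Cldn23 (1.14) and F11r (0.69) at 30 μg/kg, for F11r (0.0013) from 3 to 30 μg/kg, and, as slopes, for Cldn4 (0.20), Cldn15 (-0.038), Cldn23 (0.0088) and Tjp1 (-0.0037). Uncalled slopes changed sign with the index set term for Cldn4 (0.021), Cldn23 (0.0088) and Tjp1 (-0.010), with the clock score for Cldn4 (0.15), Cldn15 (-0.044) and Cldn23 (0.011), and without 1 mouse for F11r (-0.0076 to 0.0015). Tjp1 had a called slope over log10 dose in the 24 TCDD-treated mice (0.095, adjusted p = 0.0157, edgeR) and without vehicle replicate 2 (0.039 per dose step, adjusted p = 0.0209).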

Other observations

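Over the rank of the dose, 26 of the 62 other junction genes tested had a slope with an adjusted p under 0.05 (edgeR's quasi-likelihood test), 16 upward and 10 downward, where 23.4% of all genes did. Genes of the adherens junction were among them in both directions. Jup, which encodes plakoglobin, rose by 0.036 on the log2 scale per dose step (adjusted p = 0.00288), Nectin2 by 0.036 (adjusted p = 0.00242) and Ctnna1, which encodes α-catenin, by 0.022 (adjusted p = 0.0148), while the adhesion receptor genes Nectin3 (-0.039, adjusted p = 0.00158), Nectin1 (-0.050, adjusted p = 0.0332) and Nectin4 (-0.077, adjusted p = 0.0206) fell. The desmosome genes Dsg2 (0.042, adjusted p = 0.00133), Pkp3 (0.048, adjusted p = 0.00258) and Dsp (0.034, adjusted p = 0.0108) rose. The plaque and polarity genes Magi1 (-0.041, adjusted p = 0.000575), Cgnl1 (-0.044, adjusted p = 0.00597) and Pard3 (-0.024, adjusted p = 0.00809) fell, and Patj (0.035, adjusted p = 0.00462) and Arhgef2 (0.045, adjusted p = 0.00352) rose. These genes were chosen after their values were seen, and with the index set as a term 11 of all genes tested had a slope past the threshold. Among the junction genes that the filter left out, Cldn1 had at most 20 reads in a mouse and Cldn5, the claudin of endothelium, at most 13.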
